A study of Vitis vinifera with 36 samples.

Results

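The 100 genes described here are those that peaked most sharply at E-L 36 in winter “CS” berries, and they were followed from there into the other 3 series of the study. A gene's peak score was the smaller of 2 log2 ratios of mean FPKM + 1 in the “CS” winter crop, E-L 36 over E-L 35 and E-L 36 over E-L 38, so that a score of 1 stands for a level about 2-fold above both neighbouring stages. The 100 highest scores were chosen from the 28441 genes listed in at least 1 library, after 225 genes that the study lists for phenolic, anthocyanin and hormone metabolism, or that lie in a run of neighbouring identifiers on chromosome 16, had been left out. The “CS” winter values therefore chose the genes, and they are given as a description without a test.

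Veraison is the turning point of a grape berry, when it softens, takes up sugar, loses acid and, in red cultivars, starts to colour, and much of the berry's transcriptome is rebuilt over these days. E-L numbers name stages on the scale of Eichhorn and Lorenz: E-L 35 was the onset of veraison, E-L 36 its end and E-L 38 the harvest. In the double cropping of southern China a vine bears a summer crop and is then pruned again and forced with hydrogen cyanamide. It goes on to bear a winter crop, which is harvested in early January of the next year. Berries of the winter crop pass through these stages as the weather cools, and berries of the summer crop while it is hot.

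The data were 36 RNA-seq libraries of deseeded berries (whole pericarp) of *Vitis vinifera*, in 12 conditions of 3 biological replicates, each RNA made from 50 berries. The conditions were “CS” (Cabernet Sauvignon, a red cultivar) in the winter crop, “CS” in the summer crop, “Riesling” (a white cultivar) in the winter crop and “Riesling” in the summer crop, each at the 3 stages. All vines were field-grown adult plants on SO4 rootstock under rain shelter, and both crops were forced with hydrogen cyanamide, so no series was free of that treatment. Each crop was sampled in 1 season, so that a season and its weather, or a stage and its sampling day, cannot be told apart. In bulk tissue, fewer cells of a type and less RNA per cell cannot be told apart either.

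The libraries held 8367013 to 28686956 expected counts each, and 3 counts were worth 0.105 to 0.359 CPM. UFGT (VIT_216s0039g02230), the glycosyltransferase that makes anthocyanins, averaged 38.0 to 123 FPKM in the 6 “CS” conditions and 7.63 to 10.5 FPKM in the 6 “Riesling” conditions, and MYBA1 (VIT_202s0033g00410), its activator in red skins, 4.91 to 20.2 FPKM in “CS” and 0 to 0.42 FPKM in “Riesling”. In 5 of the 36 pairs of replicates the libraries differed by little more than counting error, with a mean chi-square per gene of 1.52 to 1.96 against 2.38 to 99.2 in the other pairs. These pairs were replicates 2 and 3 of “CS” summer (E-L 35, and likewise E-L 38), and replicates 1 and 2 of “Riesling” summer (E-L 38) and “Riesling” winter (E-L 36, and likewise E-L 38). They were kept as separate replicates, and the counts with each pair summed are given where they differ.

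Several libraries stood apart in these genes. In “Riesling” winter at E-L 36, 15 of the 100 genes were over 2-fold higher in replicate 3 than in both other replicates, against 1.52% of all genes tested. In “CS” summer, 16 genes were over 2-fold higher in replicate 2 at E-L 36 (0.282% of genes tested), and 19 were at less than 1/2 of both other replicates in replicate 1 at E-L 38 (1.04%). In “CS” winter at E-L 38, 27 genes were over 2-fold higher in replicate 1 (2.34%). In “Riesling” summer at E-L 35, 28 genes were at less than 1/2 of both others in replicate 3 and 12 were over 2-fold higher (3.88% and 6.12%). In “Riesling” summer at E-L 36, 11 genes were over 2-fold higher in replicate 3 (3.33%). The step from E-L 36 to the libraries labelled E-L 38 in “Riesling” summer also ran against that of 2 other series. Of 40 genes called higher in the step to harvest in both “CS” summer and “Riesling” winter, 13 had a fold change above 0 in “Riesling” summer, and of 153 genes called lower in both, 35 had one below 0. This step uses the “Riesling” summer libraries of both stages, and which of them set it apart was not tested. Each “Riesling” summer value at E-L 38 below, and each comparison of the “Riesling” seasons at that stage, uses the 3 libraries labelled E-L 38. Values at E-L 36 use the other side of the step.

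The genes carry no names in the deposited tables, in the lists of the study or in the reference, so they are given by identifier and position on the 12X V2 genome, and nothing is said of what they encode. Of the 100 genes, 94 lay on the 19 assembled chromosomes, with 16 on chromosome 4 and 13 on chromosome 13, and 6 were not placed. Their models were small. The median gene had 2 exons and 571.5 coding bases, against 4 exons and 1023 coding bases over the 20183 genes tested, and 27% had a single exon, against 13.8%.

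In all, 30 of the 100 genes stood in 8 runs, a run being genes of the list with at most 5 other gene models between neighbours. The largest run lay on chromosome 4 from 1213544 to 1252699, where 11 of 12 successive models, VIT_204s0008g01480 to VIT_204s0008g01590, belonged to the list (VIT_204s0008g01540 was not analysed here). Chromosome 13 held 2 runs. One ran from 4006363 to 4049360 with 4 genes between VIT_213s0019g02770 and VIT_213s0019g02850, each of 1 exon and 456 coding bases, and the other from 4195524 to 4234852 with 3 genes between VIT_213s0019g03090 and VIT_213s0019g03170. A run on chromosome 3 from 4701583 to 4783669 held 4 genes, VIT_203s0063g01220, VIT_203s0063g01290, VIT_203s0063g01310 and VIT_203s0063g01330, and chromosomes 9, 10, 14 and 15 each held a pair.

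Neighbours of this kind can share reads. Of the 100 genes, 53 had a fractional expected count in at least 1 library, which arises when a read fits several places, and 45 had one in at least 18 of the 36 libraries, so the split of reads among such genes is uncertain. In the chromosome 4 run, 10 of the 11 genes had fractional counts in 29 or more libraries, and VIT_204s0008g01480 in 0. Overlaps on the genome add to this, since the sources do not say whether counting used the strand. VIT_204s0008g01480 overlaps VIT_204s0008g01490 on the other strand by 524 bases, VIT_212s0035g01910 overlaps VIT_212s0035g01900 on the other strand by 1133 bases, and VIT_209s0002g00630 overlaps VIT_209s0002g00620 by 31 bases.

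In winter “CS” berries the peak scores of the 100 genes ran from 1.09 to 3.54 with a median of 1.41, against a median of -0.21 over all listed genes. Mean FPKM at E-L 36 ran from 1.22 to 2940 with a median of 22.2, with 16 genes over 100 FPKM and 31 under 10 FPKM. In 93 genes each E-L 36 library lay above each of the 6 libraries of the other stages, and in 7 genes the libraries overlapped. Just inside the limit were VIT_208s0056g01300 and VIT_215s0046g01610 (score 1.10 each) and VIT_214s0171g00360 (1.09), and just outside it VIT_218s0001g10670, VIT_201s0011g01170 and VIT_207s0005g01970 (1.09 each). The limit therefore fell inside a continuous range of scores.

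**Figure D1:**
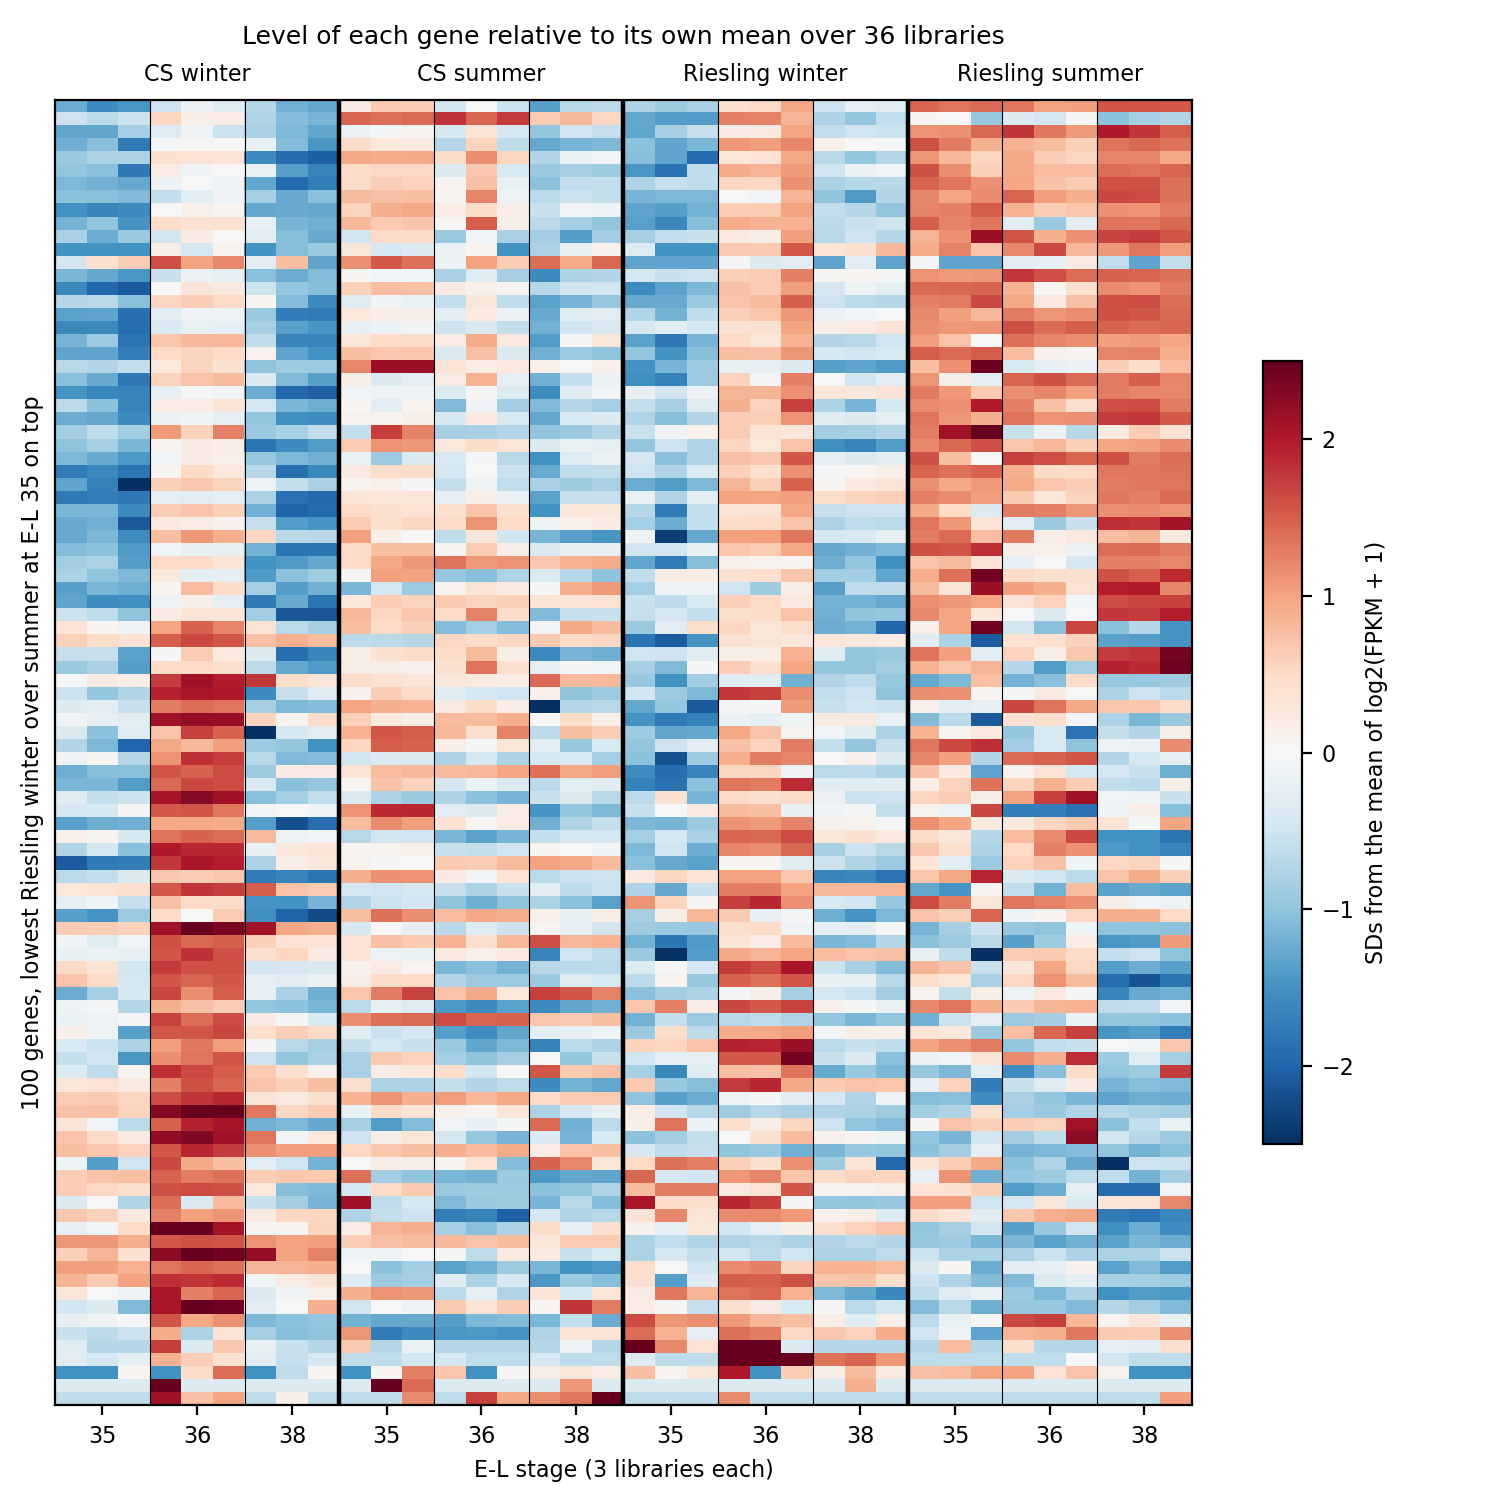
Heat map of the 100 genes (rows) in the 36 libraries (columns, by series and stage), coloured by the deviation of log2(FPKM + 1) from the gene's mean in units of its standard deviation. Rows are ordered by the fold change between Riesling winter and Riesling summer at E-L 35, the lowest on top, with the 3 genes that were not tested at the bottom. The red blocks at E-L 36 in both winter series include the “CS” winter block that chose the genes, and the upper rows are red in much of the Riesling summer series too.

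The sharpest peak was that of VIT_204s0008g01520 (chromosome 4, 1224823 to 1225354; 1 exon). It had 46.5, 46.4 and 25.8 FPKM at E-L 35, 454, 509 and 447 FPKM at E-L 36 and 42.7, 14.7 and 16.5 FPKM at E-L 38 in “CS” winter. The 3 E-L 36 libraries stood far above the 6 others. Its neighbours of the chromosome 4 run followed at other levels, with VIT_204s0008g01580 at 4.06, 2.98 and 2.66 FPKM at E-L 35, 35.5, 47.7 and 44.4 FPKM at E-L 36 and 6.13, 1.36 and 1.09 FPKM at E-L 38, and VIT_204s0008g01490 at 18.2, 18.5 and 8.29 FPKM at E-L 35, 79.7, 100.4 and 98.3 FPKM at E-L 36 and 31.8, 10.4 and 10.0 FPKM at E-L 38. Replicate 1 was the highest E-L 38 library in each of these genes. VIT_204s0008g01510 had 1.81, 2.57 and 0.53 FPKM at E-L 35, 15.1, 17.0 and 17.3 FPKM at E-L 36 and 3.67, 0.79 and 0.80 FPKM at E-L 38.

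On chromosome 13, VIT_213s0019g02780 (4015394 to 4016080) had 7.45, 6.67 and 5.66 FPKM at E-L 35, 38.9, 49.1 and 42.8 FPKM at E-L 36 and 5.40, 1.33 and 2.30 FPKM at E-L 38 in “CS” winter. VIT_213s0019g02850 of the same run had 7.62, 9.49 and 9.41 FPKM at E-L 35, 51.8, 50.5 and 48.9 FPKM at E-L 36 and 2.61, 1.28 and 0.87 FPKM at E-L 38. No E-L 36 library of either gene came near those of the other stages. VIT_213s0019g00860, which lies outside the runs (2689279 to 2690178), had 2.17, 2.17 and 1.00 FPKM at E-L 35, 23.6, 33.3 and 30.7 FPKM at E-L 36 and 10.6, 3.76 and 3.08 FPKM at E-L 38, and E-L 38 replicate 1 was again its highest library outside E-L 36.

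Other sharp peaks lay elsewhere. VIT_214s0060g02000 (chromosome 14, 1607943 to 1610560; 3 exons) had 2.33, 1.62 and 1.73 FPKM at E-L 35, 24.2, 30.2 and 25.6 FPKM at E-L 36 and 0.76, 1.09 and 1.54 FPKM at E-L 38 in “CS” winter. VIT_208s0040g02700 had 4.20, 3.03 and 3.59 FPKM at E-L 35, 21.9, 23.4 and 22.8 FPKM at E-L 36 and 1.83, 4.13 and 4.91 FPKM at E-L 38. Both were low in each library of the other stages. VIT_203s0088g00260, the gene with most exons among the 12 sharpest peaks (13 exons), had 3.46, 3.53 and 2.90 FPKM at E-L 35, 17.2, 26.4 and 24.1 FPKM at E-L 36 and 6.64, 2.72 and 3.20 FPKM at E-L 38, and VIT_206s0004g06770 had 4.27, 3.77 and 3.50 FPKM at E-L 35, 31.6, 33.8 and 34.1 FPKM at E-L 36 and 7.92, 5.12 and 7.26 FPKM at E-L 38. VIT_212s0035g01910 (chromosome 12, 22228715 to 22229897; 1 exon), which shares its place with a model on the other strand, had 207, 221 and 166 FPKM at E-L 35, 894, 996 and 948 FPKM at E-L 36 and 131, 101 and 104 FPKM at E-L 38. It was among the genes with the highest levels of the list.

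The highest level of the 100 genes at E-L 36 was that of VIT_211s0016g04920 (chromosome 11, 4233399 to 4234829; 3 exons), with 796, 678 and 588 FPKM at E-L 35, 2627, 3297 and 2898 FPKM at E-L 36 and 959, 1175 and 1049 FPKM at E-L 38 in “CS” winter. VIT_201s0010g02460 (chromosome 1; 11 exons) had 242, 229 and 149.6 FPKM at E-L 35, 728, 806 and 759.9 FPKM at E-L 36 and 439, 192 and 202 FPKM at E-L 38. These genes were well expressed at all stages, and their peak stood on that level. VIT_214s0066g00700 had 199, 195 and 138 FPKM at E-L 35, 368, 461 and 389 FPKM at E-L 36 and 137, 135 and 145 FPKM at E-L 38, and VIT_214s0060g01490 had 185, 170.5 and 150.0 FPKM at E-L 35, 374, 430.4 and 375 FPKM at E-L 36 and 226, 157 and 147 FPKM at E-L 38. VIT_216s0050g00910 had 122, 124 and 86.7 FPKM at E-L 35, 286, 314 and 307 FPKM at E-L 36 and 129.6, 106 and 108 FPKM at E-L 38. VIT_203s0063g01290 of the chromosome 3 run had 28.1, 31.6 and 36.6 FPKM at E-L 35, 239, 364 and 321 FPKM at E-L 36 and 225, 59.9 and 52.6 FPKM at E-L 38, so that E-L 38 replicate 1 nearly reached the lowest E-L 36 library.

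The winter values of “CS” were also set against the summer crop of the same cultivar. Mean FPKM + 1 in “CS” was lower in winter than in summer for 76 of the 100 genes at E-L 35 (median log2 ratio -1.24), higher for 79 at E-L 36 (median 1.00) and lower for 60 at E-L 38 (median -0.34). All 3 winter libraries lay below all 3 summer libraries for 63 genes at E-L 35 and above them for 12. At E-L 36 they lay above for 60 genes and below for 10, and at E-L 38 below for 28 and above for 21. These ratios and counts use the values that chose the genes, carry no test and are given without the share over all genes.

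Outside the “CS” winter crop, 97 of the 100 genes passed the filter on low counts and were tested. The other 3 were VIT_200s0299g00090, VIT_207s0005g06430 and VIT_216s0013g00920, which had 0 FPKM in at least 1 E-L 36 library of “Riesling” winter. A call took 0.01 or less in the adjusted p and 2-fold or more in either direction in the quasi-likelihood test of edgeR, with Benjamini-Hochberg adjustment over all 20183 genes tested. The replicates are described as biological, but it is not stated that the libraries of the 5 near-equal pairs came from separate RNA, so p-values measure only the spread between these libraries within 1 season, which may in part be technical. Where a condition held fewer than 10 counts over its 3 libraries, the fitted fold change depends on the prior count, and FPKM and p only are given for the gene. Leaving such genes out (3 to 11 per comparison) moved the medians below by at most 0.19.

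The winter crop of “Riesling” showed the same stage pattern in most of the genes. Mean FPKM was highest at E-L 36 in 89 of the 100 genes in “Riesling” winter, against 20.4% of all genes tested, and all 3 E-L 36 libraries lay above the 6 others in 65 genes, against 6.39% of all genes tested. E-L 36 over E-L 35, 67 of the 97 genes were called higher and 1 lower, where 4.13% and 6.01% of all genes tested were called. The median log2 fold change was 1.98, against -0.03 over all genes, and 90 of the 97 lay above 0. E-L 38 over E-L 36, 57 were called lower and 0 higher, where 13.1% and 5.8% of all genes were called, with a median of -1.69 and 93 of the 97 below 0. DESeq2 also called 0 higher in this step.

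Replicate 3 of “Riesling” winter at E-L 36 was the library with 15 genes over 2-fold above both others. Without it, 64 genes were called higher in the first step and 42 lower in the second. With the near-equal pairs of libraries summed, an alternative chosen after seeing the data, 65 were called higher and 44 lower.

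**Figure D2:**
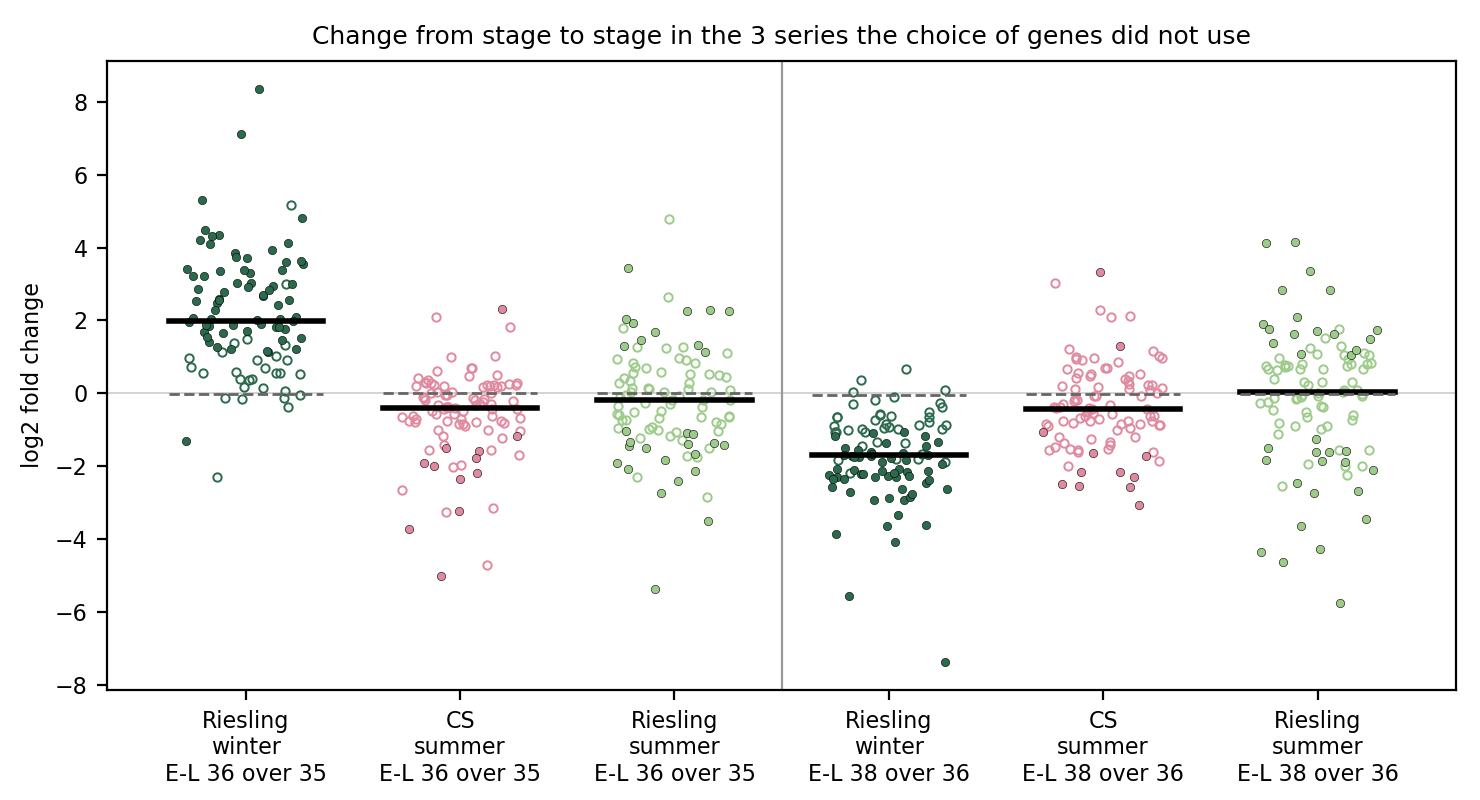
Log2 fold changes of the 97 tested genes for E-L 36 over E-L 35 and E-L 38 over E-L 36 in “Riesling” winter, “CS” summer and “Riesling” summer. Each point is a gene, filled where it was called, the black bar is the median of the 97 genes and the dashed line that of all genes tested. The Riesling winter medians were 1.98 and -1.69, and the others lay between -0.42 and 0.05.

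VIT_204s0008g01520 had 82.5, 21.1 and 95.3 FPKM at E-L 35, 321, 316 and 711 FPKM at E-L 36 and 98.0, 106 and 105 FPKM at E-L 38 in “Riesling” winter. It rose at E-L 36 over E-L 35 (log2 fold change 2.94 ± 0.60 (SE), adjusted p = 0.00032) and fell at E-L 38 over E-L 36 (log2 fold change -2.15 ± 0.58 (SE), adjusted p = 0.0027), and the fall was lost without Riesling winter E-L 36 replicate 3 or Riesling winter E-L 38 replicates 1, 2 or 3 (adjusted p between 0.01 and 0.026). VIT_204s0008g01580 had 37.0, 23.5 and 39.3 FPKM at E-L 35, 190.4, 189 and 296 FPKM at E-L 36 and 80.5, 76.2 and 87.3 FPKM at E-L 38, and it likewise rose (log2 fold change 2.93 ± 0.46 (SE), adjusted p = 1.5e-05) and fell (log2 fold change -1.49 ± 0.43 (SE), adjusted p = 0.0051). Its fall was lost without Riesling winter E-L 36 replicate 3 or Riesling winter E-L 38 replicates 1, 2 or 3 (adjusted p between 0.014 and 0.031), and in 4 of 9 other settings. In both genes the 3 E-L 36 libraries stood above the 6 others, with replicate 3 on top.

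VIT_204s0008g01490 had 41.2, 22.4 and 47.7 FPKM at E-L 35, 251, 285 and 489.8 FPKM at E-L 36 and 92.7, 104 and 114 FPKM at E-L 38 in “Riesling” winter. It rose (log2 fold change 3.38 ± 0.42 (SE), adjusted p = 5.2e-07) and fell (log2 fold change -1.75 ± 0.39 (SE), adjusted p = 0.00046). VIT_204s0008g01510 had 1.42, 0.57 and 1.82 FPKM at E-L 35, 12.4, 10.2 and 17.9 FPKM at E-L 36 and 3.19, 3.36 and 4.29 FPKM at E-L 38, with a rise (log2 fold change 3.63 ± 0.58 (SE), adjusted p = 1.8e-05) and a fall (log2 fold change -1.92 ± 0.50 (SE), adjusted p = 0.0021) that was lost without Riesling winter E-L 36 replicate 3 or Riesling winter E-L 38 replicates 1 or 2 (adjusted p between 0.01 and 0.015). Its libraries did not overlap between E-L 36 and the other stages.

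VIT_213s0019g02780 had 14.3, 19.1 and 17.3 FPKM at E-L 35, 117, 117 and 314 FPKM at E-L 36 and 13.5, 15.5 and 15.8 FPKM at E-L 38 in “Riesling” winter, VIT_213s0019g02850 had 6.26, 4.09 and 1.21 FPKM at E-L 35, 46.8, 50.2 and 117 FPKM at E-L 36 and 11, 7.33 and 10.6 FPKM at E-L 38, and in both the E-L 36 libraries stood clear of the rest. VIT_213s0019g02780 rose at E-L 36 (log2 fold change 3.60 ± 0.45 (SE), adjusted p = 4.9e-07) and fell at E-L 38 (log2 fold change -3.64 ± 0.45 (SE), adjusted p = 1.5e-07). VIT_213s0019g02850 rose (log2 fold change 4.32 ± 0.49 (SE), adjusted p = 1.3e-07) and fell (log2 fold change -2.92 ± 0.44 (SE), adjusted p = 3.2e-06). VIT_213s0019g00860 had 23.0, 27.9 and 21.2 FPKM at E-L 35, 84.0, 85.4 and 241 FPKM at E-L 36 and 57.8, 64.2 and 78.0 FPKM at E-L 38. It rose (log2 fold change 2.68 ± 0.38 (SE), adjusted p = 3.7e-06), while its difference at E-L 38 missed the threshold (log2 fold change -1.06 ± 0.36 (SE), adjusted p = 0.014) and passed it without Riesling winter E-L 36 replicate 1 (adjusted p = 0.0042) or replicate 2 (adjusted p = 0.0044).

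VIT_208s0040g02700 had 4.40, 3.18 and 2.68 FPKM at E-L 35, 19.6, 18.9 and 13.3 FPKM at E-L 36 and 4.01, 4.31 and 2.97 FPKM at E-L 38 in “Riesling” winter. The E-L 36 libraries again stood apart, with a rise (log2 fold change 2.48 ± 0.30 (SE), adjusted p = 3.1e-07) and a fall (log2 fold change -2.21 ± 0.30 (SE), adjusted p = 5.3e-07). VIT_212s0035g01910 had 88.0, 116 and 40.9 FPKM at E-L 35, 274, 272 and 744 FPKM at E-L 36 and 169, 178 and 172 FPKM at E-L 38. It rose (log2 fold change 2.55 ± 0.43 (SE), adjusted p = 3.1e-05) and fell (log2 fold change -1.34 ± 0.41 (SE), adjusted p = 0.0072), and the fall was lost without Riesling winter E-L 36 replicate 3 or Riesling winter E-L 38 replicates 1, 2 or 3 (adjusted p between 0.02 and 0.17) and in 5 of 9 other settings. Replicate 3 at E-L 36 was more than 2-fold above replicates 1 and 2.

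VIT_201s0010g02460 had 100.2, 145 and 103 FPKM at E-L 35, 801, 786 and 940.0 FPKM at E-L 36 and 276, 300.4 and 268 FPKM at E-L 38 in “Riesling” winter, with a rise (log2 fold change 3.03 ± 0.33 (SE), adjusted p = 5.2e-08) and a fall (log2 fold change -1.60 ± 0.31 (SE), adjusted p = 8.9e-05). VIT_214s0060g01490 had 297, 291 and 316 FPKM at E-L 35, 578, 573 and 648 FPKM at E-L 36 and 159, 169.5 and 163 FPKM at E-L 38. It changed less but with little spread, rising (log2 fold change 1.16 ± 0.16 (SE), adjusted p = 1.9e-06) and falling (log2 fold change -1.89 ± 0.16 (SE), adjusted p = 2.2e-10). VIT_211s0016g04920, the gene with the highest mean of the 100 at E-L 36 in “CS” winter, had 31.8, 22.8 and 51.8 FPKM at E-L 35, 586, 547 and 519 FPKM at E-L 36 and 539, 533 and 487 FPKM at E-L 38. It rose (log2 fold change 4.13 ± 0.43 (SE), adjusted p = 3.5e-08) and was not called at E-L 38 (log2 fold change -0.10 ± 0.38 (SE), adjusted p = 0.84), where its libraries overlapped with those of E-L 36.

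The largest rises of the step to E-L 36 in “Riesling” winter were found in genes with almost no signal at E-L 35. VIT_204s0023g02280 had 0.12, 0 and 0 FPKM at E-L 35, 15.1, 14.8 and 9.46 FPKM at E-L 36 and 0.91, 0.56 and 1.25 FPKM at E-L 38 (adjusted p = 4.2e-10 for E-L 36 over E-L 35). VIT_205s0077g00430 had 0.29, 0 and 0 FPKM at E-L 35, 14.5, 14.3 and 12.1 FPKM at E-L 36 and 4.11, 4.51 and 3.07 FPKM at E-L 38 (adjusted p = 1.5e-06). Both were near or at 0 at E-L 35 in 3 of 3 libraries. VIT_203s0063g01290 had 4.16, 1.21 and 6.42 FPKM at E-L 35, 155, 158 and 96.3 FPKM at E-L 36 and 70.2, 71.1 and 71.9 FPKM at E-L 38. It rose (log2 fold change 5.31 ± 0.95 (SE), adjusted p = 7.6e-05), and its fall at harvest missed the threshold (log2 fold change -0.96 ± 0.75 (SE), adjusted p = 0.29).

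Among the largest falls at harvest in “Riesling” winter, VIT_202s0087g01010 had 2.12, 5.00 and 3.55 FPKM at E-L 35, 5.14, 5.37 and 3.61 FPKM at E-L 36 and 0.44, 0.30 and 0.08 FPKM at E-L 38 (log2 fold change -4.06 ± 0.40 (SE), adjusted p = 2.8e-09). VIT_202s0025g00430 had 15.4, 3.09 and 3.07 FPKM at E-L 35, 13.3, 11.5 and 1.81 FPKM at E-L 36 and 0.18, 0.18 and 0.20 FPKM at E-L 38 (adjusted p = 0.0012), and VIT_200s0253g00100 had 5.61, 2.03 and 0.86 FPKM at E-L 35, 5.41, 6.05 and 0.24 FPKM at E-L 36 and 0, 0 and 0 FPKM at E-L 38 (adjusted p = 0.0042). In the last 2 genes E-L 36 replicate 3 was far below replicates 1 and 2. The call of VIT_200s0253g00100 was lost without Riesling winter E-L 36 replicates 1 or 2 or Riesling winter E-L 38 replicates 1, 2 or 3 (adjusted p between 0.011 and 0.016).

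A part of the genes did not follow the pattern in “Riesling” winter, or missed the threshold for it, and some named ones are given here. VIT_218s0001g09400 had 3.92, 2.65 and 2.92 FPKM at E-L 35, 1.24, 1.49 and 0.74 FPKM at E-L 36 and 0.88, 1.40 and 1.28 FPKM at E-L 38 and was the one gene called lower at E-L 36 (log2 fold change -1.30 ± 0.39 (SE), adjusted p = 0.0092), a call that was lost in each of the 6 fits with 1 library left out, with adjusted p between 0.013 and 0.069. VIT_203s0088g00260 had 1.80, 0.53 and 0.25 FPKM at E-L 35, 0.06, 0.26 and 0.13 FPKM at E-L 36 and 0.21, 0.16 and 0.06 FPKM at E-L 38, and VIT_216s0050g00910 had 2.91, 4.42 and 3.14 FPKM at E-L 35, 3.09, 3.64 and 3.02 FPKM at E-L 36 and 3.27, 4.04 and 3.25 FPKM at E-L 38. Each of these 3 genes was at a far lower level than in “CS” winter. VIT_214s0060g02000, one of the sharpest peaks in “CS” winter, had 1.49, 4.96 and 0.61 FPKM at E-L 35, 5.67, 5.08 and 5.51 FPKM at E-L 36 and 2.83, 1.72 and 1.78 FPKM at E-L 38, and its changes missed the threshold at E-L 36 (log2 fold change 1.32 ± 0.44 (SE), adjusted p = 0.019) and at E-L 38 (log2 fold change -1.37 ± 0.45 (SE), adjusted p = 0.012). Without Riesling winter E-L 35 replicate 2, its highest library at that stage, the first was called (adjusted p = 0.00022). Its E-L 36 libraries all lay above those of the other stages, and DESeq2 called its fall at E-L 38. VIT_206s0004g06770 had 0.67, 0.32 and 0.41 FPKM at E-L 35, 3.94, 3.73 and 4.19 FPKM at E-L 36 and 5.72, 5.85 and 3.83 FPKM at E-L 38, a rise (adjusted p = 1.2e-05) without a fall (log2 fold change 0.37 ± 0.35 (SE), adjusted p = 0.4).

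**Figure D3:**
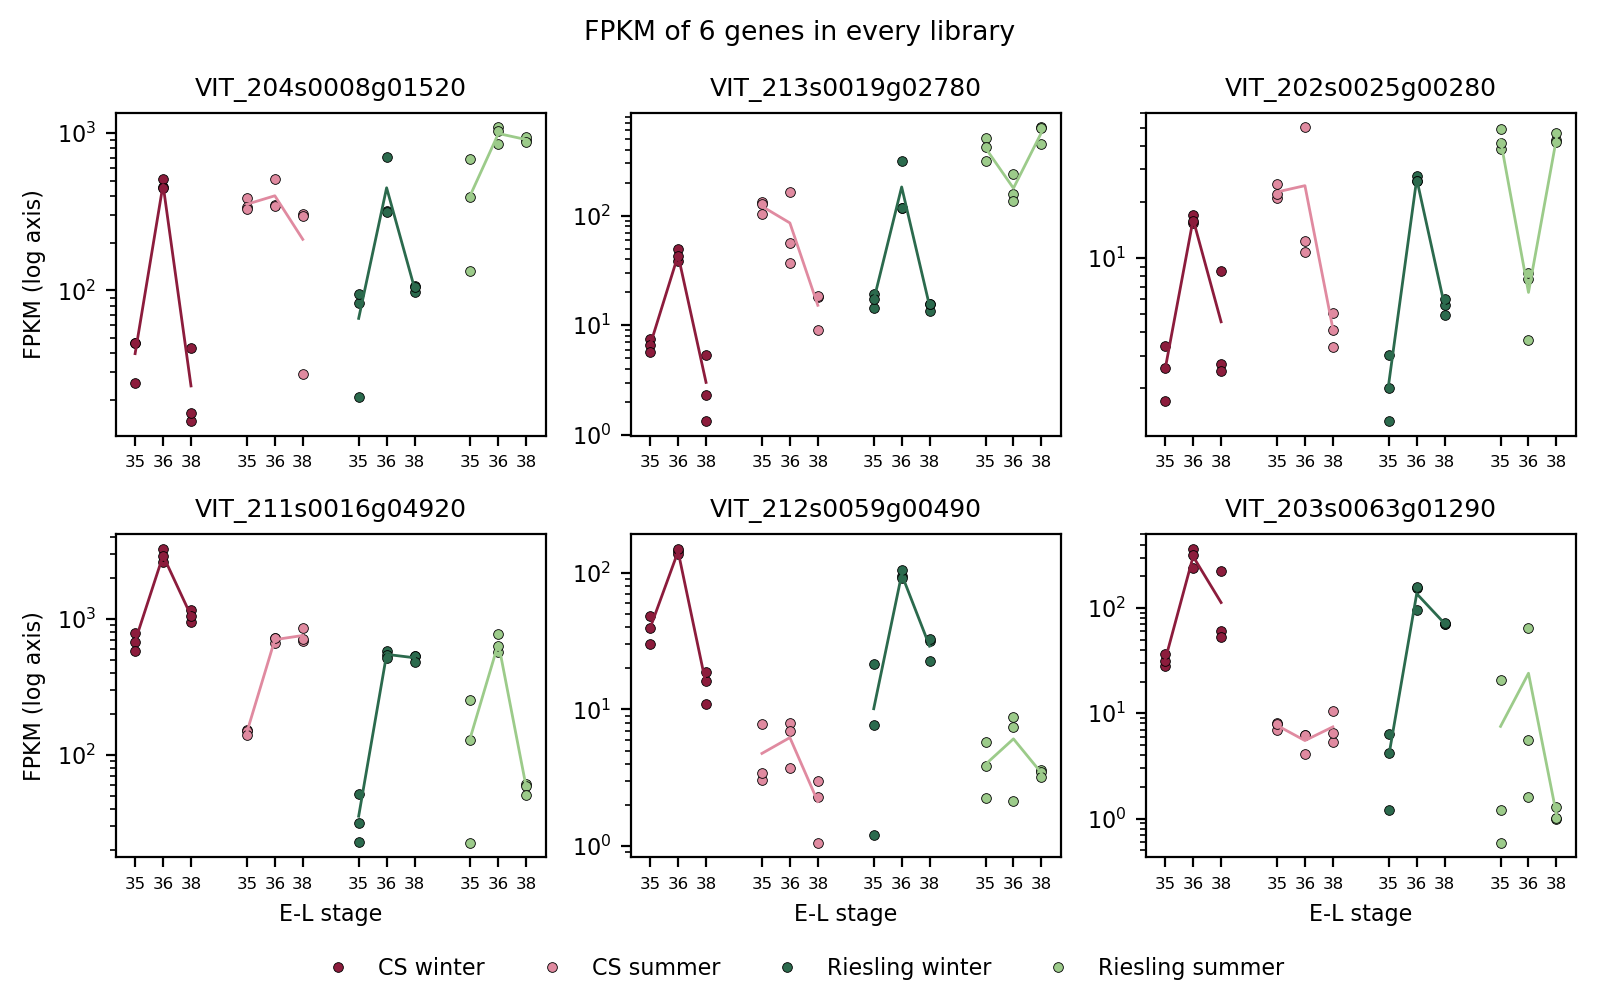
FPKM of 6 genes on a log axis at the 3 stages (E-L numbers) in the 4 series, with a point for each library and lines through the condition means. VIT_204s0008g01520, VIT_213s0019g02780 and VIT_202s0025g00280 peak at E-L 36 in the winter series and are high at E-L 35 in the summer series, while VIT_212s0059g00490 and VIT_203s0063g01290 are higher at E-L 36 in each winter series than in the summer series of the same cultivar.

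In the summer crop of “CS” the genes showed no common peak at E-L 36. Mean FPKM was highest at E-L 35 in 61 of the 100 genes, at E-L 36 in 20 and at E-L 38 in 19. Over all genes tested the shares were 46.4%, 27.7% and 26.0%, so these genes were more often highest at E-L 35. All E-L 36 libraries lay above the others in 5 genes, against 5.98%. E-L 36 over E-L 35, 1 of the 97 genes was called higher and 11 lower, where 1.46% and 5.04% of all genes tested were called (median log2 fold change -0.39). E-L 38 over E-L 36, 2 were called higher and 10 lower, where 1.12% and 1.28% were called (median -0.42). The 10 lower calls depended on single libraries. Without “CS” summer E-L 36 replicate 2 they numbered 2, without E-L 38 replicate 1 they numbered 3, without E-L 38 replicate 2 or replicate 3 they numbered 5, and with the near-equal pairs summed, an alternative chosen after seeing the data, they numbered 3.

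The gene called higher at E-L 36 in “CS” summer was VIT_211s0016g04920, with 152, 149 and 141 FPKM at E-L 35, 733, 666 and 723 FPKM at E-L 36 and 861, 696 and 718 FPKM at E-L 38 (log2 fold change 2.32 ± 0.39 (SE), adjusted p = 9.6e-05 for E-L 36 over E-L 35). Its E-L 38 libraries overlapped with those of E-L 36, as in “Riesling” winter. Among those called lower, VIT_208s0056g01300 had 4.63, 5.83 and 6.48 FPKM at E-L 35, 0.70, 0.84 and 0.16 FPKM at E-L 36 and 7.48, 4.66 and 4.86 FPKM at E-L 38 and so formed a trough at E-L 36, lower than at E-L 35 (log2 fold change -3.22 ± 0.53 (SE), adjusted p = 6.3e-05) and higher again at E-L 38 (log2 fold change 3.32 ± 0.55 (SE), adjusted p = 0.00019). In “CS” winter the same gene peaked, with 31.1, 27.6 and 17.4 FPKM at E-L 35, 64.8, 48.1 and 53.8 FPKM at E-L 36 and 17.4, 25.6 and 26.1 FPKM at E-L 38. VIT_203s0038g04120 had 0.19, 2.35 and 1.69 FPKM at E-L 35, 0.08, 0.09 and 0.12 FPKM at E-L 36 and 0, 0.03 and 0.12 FPKM at E-L 38 (log2 fold change -3.73 ± 0.68 (SE), adjusted p = 0.00023), with E-L 35 replicate 1 close to the E-L 36 libraries. VIT_202s0025g00430 had 16.6, 0.59 and 0.95 FPKM at E-L 35, 0.05, 0.23 and 0.26 FPKM at E-L 36 and 0, 0.50 and 0.06 FPKM at E-L 38 (log2 fold change -5.01 ± 1.31 (SE), adjusted p = 0.0062), a call that rested on 1 high library and was lost without CS summer E-L 35 replicate 1 or CS summer E-L 36 replicates 1, 2 or 3 (adjusted p between 0.025 and 0.28).

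At harvest in “CS” summer, VIT_202s0025g00280 had 24.9, 21.0 and 22.0 FPKM at E-L 35, 10.8, 50.3 and 12.3 FPKM at E-L 36 and 5.10, 4.09 and 3.34 FPKM at E-L 38, lower at harvest than before (log2 fold change -2.53 ± 0.45 (SE), adjusted p = 0.00042). Its E-L 36 replicate 2 was over 4-fold above the other replicates, and the call was lost without CS summer E-L 36 replicate 2 (adjusted p = 0.013). VIT_204s0008g01570 had 27.3, 20.9 and 19.9 FPKM at E-L 35, 5.02, 31.4 and 5.81 FPKM at E-L 36 and 1.98, 2.43 and 2.75 FPKM at E-L 38 (log2 fold change -2.56 ± 0.63 (SE), adjusted p = 0.009) and was lost without CS summer E-L 36 replicate 2 or CS summer E-L 38 replicates 1, 2 or 3 (adjusted p between 0.03 and 0.28). VIT_209s0002g00630, a model of 120 coding bases, had 6.09, 7.59 and 8.19 FPKM at E-L 35, 8.15, 11.2 and 6.03 FPKM at E-L 36 and 0.54, 1.25 and 1.12 FPKM at E-L 38 (adjusted p = 0.0048) and was lost without CS summer E-L 36 replicates 1 or 2 or CS summer E-L 38 replicates 1, 2 or 3 (adjusted p between 0.013 and 0.04). The same replicate 2 was the highest E-L 36 library in these 3 genes. VIT_200s0480g00060 had 1.70, 2.57 and 2.66 FPKM at E-L 35, 0.77, 0.61 and 0.79 FPKM at E-L 36 and 2.02, 1.27 and 1.96 FPKM at E-L 38 and was called higher at E-L 38 (log2 fold change 1.30 ± 0.28 (SE), adjusted p = 0.0028), but not without CS summer E-L 36 replicates 1 or 2 or CS summer E-L 38 replicates 1 or 3 (adjusted p between 0.01 and 0.02).

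Some of the genes with sharp peaks in “CS” winter were already high at E-L 35 in “CS” summer, and others stayed low. VIT_204s0008g01520 had 388, 341 and 330.4 FPKM at E-L 35, 348, 509 and 343 FPKM at E-L 36 and 29.4, 305 and 299 FPKM at E-L 38, so that the winter and summer libraries of “CS” overlapped at E-L 36 and not at E-L 35. VIT_213s0019g02780 had 103, 134 and 128 FPKM at E-L 35, 56.1, 164 and 36.9 FPKM at E-L 36 and 9.0, 18.1 and 18.5 FPKM at E-L 38. In both, replicate 2 was the highest E-L 36 library and replicate 1 the lowest E-L 38 library. VIT_201s0010g02460 had 114, 141 and 139 FPKM at E-L 35, 75.9, 64.2 and 75 FPKM at E-L 36 and 123, 147 and 146 FPKM at E-L 38, its lowest values at E-L 36, and VIT_214s0060g02000 had 2.19, 1.19 and 0.94 FPKM at E-L 35, 1.22, 0.81 and 0.59 FPKM at E-L 36 and 1.69, 2.20 and 1.38 FPKM at E-L 38, at most 2.20 FPKM in any library. VIT_203s0063g01290 had 8.10, 6.99 and 7.92 FPKM at E-L 35, 6.17, 4.11 and 6.25 FPKM at E-L 36 and 10.4, 5.33 and 6.50 FPKM at E-L 38, with the stages overlapping.

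In the summer crop of “Riesling” the genes scattered over all 3 stages. Of 99 genes with a signal, 36 had their highest mean at the first stage, 35 at E-L 36 and 28 at the last. Over all genes tested the shares were 35.6%, 40.8% and 23.7%, a similar spread. In 13 genes all E-L 36 libraries lay above the others, against 14.8%. E-L 36 over E-L 35, 11 of the 97 genes were called higher and 18 lower, where 3.28% and 6.92% of all genes tested were called (median -0.19). Replicates of the same number deviated together in this step, and with the replicate number as a block in a fit of the “Riesling” summer libraries 3 genes were called higher and 15 lower. The higher calls also fell in that fit without the block, as given further below. E-L 38 over E-L 36, which uses the 3 libraries labelled E-L 38 described above, 17 were called higher and 18 lower, where 5.78% and 6.12% were called (median 0.05).

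VIT_207s0151g00340 had 1.22, 2.12 and 2.53 FPKM at E-L 35, 10.9, 11.6 and 5.58 FPKM at E-L 36 and 2.81, 3.42 and 2.19 FPKM at E-L 38 in “Riesling” summer and rose at E-L 36 (log2 fold change 2.28 ± 0.31 (SE), adjusted p = 1.9e-06). VIT_206s0004g06770 had 1.33, 2.23 and 0 FPKM at E-L 35, 6.64, 7.19 and 4.58 FPKM at E-L 36 and 1.99, 1.20 and 1.62 FPKM at E-L 38 (log2 fold change 2.27 ± 0.39 (SE), adjusted p = 5.1e-05). Its call was lost in 2 of 9 other settings, the replicate block among them (adjusted p = 0.034). VIT_215s0046g01970 had 0.10, 0 and 0.43 FPKM at E-L 35, 0.16, 0.30 and 4.63 FPKM at E-L 36 and 0.42, 0.25 and 0.14 FPKM at E-L 38 (adjusted p = 0.0092), with 1 high library, and its call was lost without Riesling summer E-L 35 replicates 1 or 2 or Riesling summer E-L 36 replicate 3 (adjusted p between 0.037 and 0.63), with the block (adjusted p = 0.1) and in 6 other settings. VIT_207s0151g00340 and VIT_206s0004g06770 had no overlap between the first 2 stages.

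Lower at E-L 36 in “Riesling” summer was VIT_202s0025g00280, with 49.3, 38.3 and 41.2 FPKM at E-L 35, 7.68, 3.64 and 8.31 FPKM at E-L 36 and 42.9, 41.9 and 46.8 FPKM at E-L 38 (log2 fold change -2.72 ± 0.43 (SE), adjusted p = 1.6e-05), a trough where the 2 winter series had a peak. In “Riesling” winter it had 2.01, 1.33 and 3.02 FPKM at E-L 35, 27.7, 26.0 and 26.0 FPKM at E-L 36 and 4.93, 5.61 and 6.03 FPKM at E-L 38. VIT_203s0038g04120 had 1.74, 2.95 and 4.75 FPKM at E-L 35, 0.21, 0.46 and 0.14 FPKM at E-L 36 and 0.71, 1.06 and 0.82 FPKM at E-L 38 (log2 fold change -3.51 ± 0.58 (SE), adjusted p = 2.8e-05). VIT_214s0030g01300 had 3.51, 2.84 and 13.8 FPKM at E-L 35, 0.19, 0.19 and 0.06 FPKM at E-L 36 and 2.92, 3.81 and 0.92 FPKM at E-L 38, lower in the first step (adjusted p = 3.3e-07) and higher in the second (adjusted p = 2.2e-05), and with the block both calls were lost (adjusted p = 0.0101 and 0.0197). Its E-L 36 libraries were all lower than those of either other stage.

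The step to E-L 38 in “Riesling” summer split the genes. VIT_204s0008g01110 had 28.1, 24.1 and 27.8 FPKM at E-L 35, 6.55, 3.22 and 5.80 FPKM at E-L 36 and 70.7, 67.0 and 109 FPKM at E-L 38 (log2 fold change 4.16 ± 0.35 (SE), adjusted p = 6.2e-10), and VIT_216s0022g00510 had 163, 131 and 65.7 FPKM at E-L 35, 37.7, 20.3 and 28.8 FPKM at E-L 36 and 262, 247 and 319.8 FPKM at E-L 38 (log2 fold change 3.35 ± 0.34 (SE), adjusted p = 1.7e-08). Both were highest at E-L 38 and lowest at E-L 36. VIT_208s0056g01300 had 24.5, 20.3 and 9.29 FPKM at E-L 35, 31.0, 41.8 and 44.5 FPKM at E-L 36 and 0.62, 0.47 and 0.93 FPKM at E-L 38 and fell (log2 fold change -5.76 ± 0.50 (SE), adjusted p = 9.6e-10), and VIT_213s0067g02300 had 31.3, 29.7 and 7.65 FPKM at E-L 35, 49.3, 102 and 137 FPKM at E-L 36 and 3.93, 4.32 and 2.68 FPKM at E-L 38 and fell (log2 fold change -4.63 ± 0.55 (SE), adjusted p = 2e-07). VIT_203s0063g01290 had 1.20, 0.59 and 20.7 FPKM at E-L 35, 5.61, 1.59 and 64.7 FPKM at E-L 36 and 0.99, 1.29 and 1.02 FPKM at E-L 38 (log2 fold change -4.34 ± 1.08 (SE), adjusted p = 0.0019), with replicate 3 alone high at the first 2 stages, and its call was lost without Riesling summer E-L 36 replicate 3 or Riesling summer E-L 38 replicates 1 or 3 (adjusted p between 0.011 and 0.23). VIT_211s0016g04920, whose last 2 stages overlapped in “Riesling” winter and “CS” summer, had 253, 129.8 and 22.6 FPKM at E-L 35, 576, 637 and 782 FPKM at E-L 36 and 61.7, 59.1 and 51.2 FPKM at E-L 38.

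Seasons could be compared in “Riesling” with values that took no part in the choice of the genes. Winter over summer at E-L 35, 52 of the 97 genes were called lower and 3 higher, where 4.48% and 5.54% of all genes tested were called, with a median log2 fold change of -1.44 against 0.01 over all genes. At E-L 36, 26 were called higher and 3 lower, where 4.65% and 2.48% were called (median 0.51). At E-L 38, 42 were called lower and 16 higher, where 16.1% and 11.8% were called (median -0.90). The last comparison uses the “Riesling” summer libraries labelled E-L 38. The one at E-L 36 uses the libraries on the other side of the step that ran against the other series.

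The genes can be described by their call at E-L 35, a split that fixes the values of that stage and whose groups were not tested against each other. In the 52 genes called lower in winter, the median log2 fold change of winter over summer was -2.77 at E-L 35, 0.31 at E-L 36, where 8 were called higher and 2 lower, and -2.79 at E-L 38, where 2 were called higher and 39 lower. In the 42 genes not called at E-L 35 the medians were -0.36 at that stage, 1.12 at E-L 36, where 16 were called higher and 1 lower, and 0.49 at E-L 38, where 13 were called higher and 3 lower. In the 3 genes called higher at E-L 35 it was 1.52, 2.27 and 0.61 at the 3 stages. Over all genes tested, 4.65% were called higher and 2.48% lower at E-L 36, and 11.8% and 16.1% at E-L 38. The first group held 22 of the 30 genes in runs, the second 8 and the third 0. These 22 include the 11 genes of the chromosome 4 run, which may share reads. In “CS”, whose winter values chose the genes, the mean at E-L 36 was lower in winter than in summer in 20 of the 52, in 1 of the 42 and in 0 of the 3. The E-L 38 values again use the “Riesling” summer libraries labelled so.

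**Figure D4:**
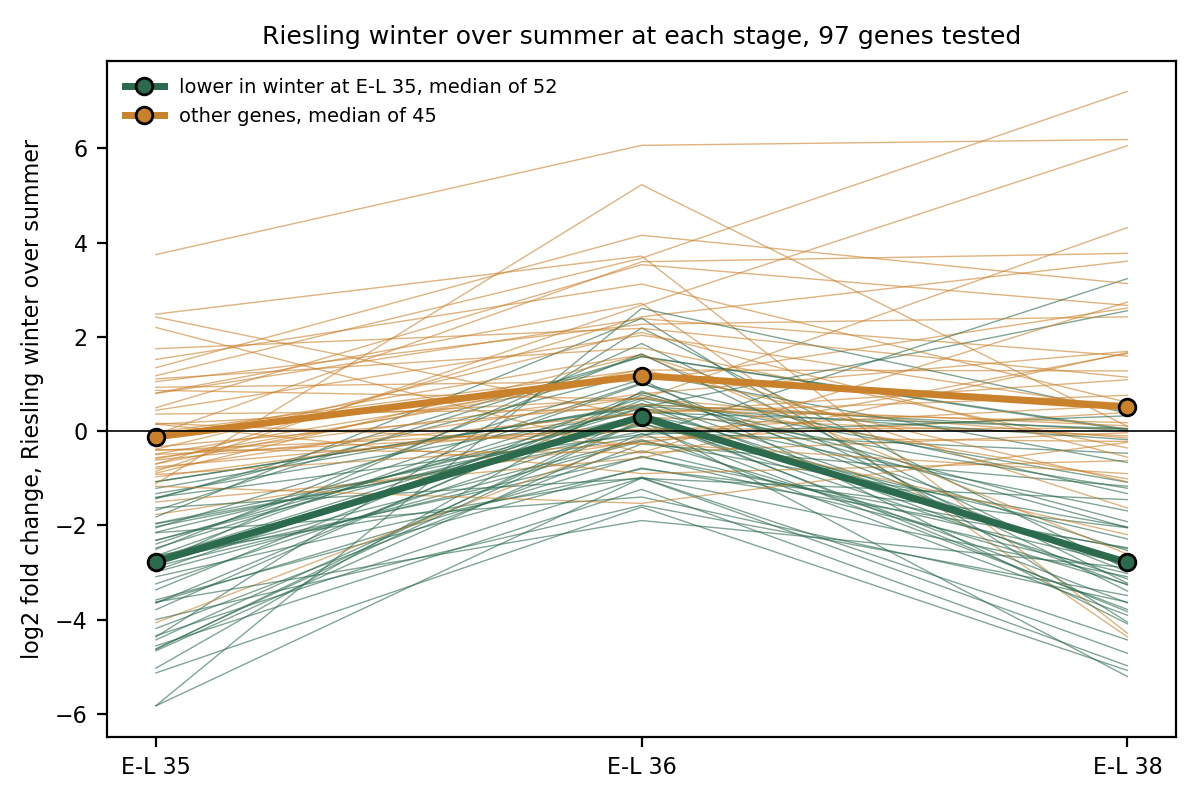
Log2 fold change of “Riesling” winter over summer at each of the 3 stages for the 97 tested genes, with a thin line for each gene. Green lines are the 52 genes called lower in winter at E-L 35 (medians -2.77, 0.31 and -2.79) and orange lines the 45 others, and the thick lines are their medians. Both medians are highest at E-L 36, where the green lines lie on both sides of 0. The E-L 36 and E-L 38 values use the Riesling summer libraries whose step ran against the other series.

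At E-L 35, VIT_204s0008g01590 had 4.79, 3.61 and 4.35 FPKM in “Riesling” winter and 261, 215 and 246 FPKM in “Riesling” summer (log2 fold change -5.83 ± 0.49 (SE), adjusted p = 9.4e-10). VIT_213s0019g02770 had 0, 0.86 and 1.58 FPKM in winter and 24.3, 24.8 and 37.4 FPKM in summer (log2 fold change -5.13 ± 0.69 (SE), adjusted p = 1.6e-06), and VIT_204s0023g02280 had 0.12, 0 and 0 FPKM in winter and 3.52, 3.32 and 0.59 FPKM in summer (adjusted p = 1.9e-06). No winter library overlapped with a summer library in these genes. VIT_207s0151g00340 went the other way, with 10.7, 7.05 and 7.34 FPKM in winter and 1.22, 2.12 and 2.53 FPKM in summer (log2 fold change 2.20 ± 0.31 (SE), adjusted p = 3.2e-06). VIT_202s0087g01010 had 2.12, 5.00 and 3.55 FPKM in winter and 0.91, 1.30 and 1.52 FPKM in summer (log2 fold change 1.52 ± 0.33 (SE), adjusted p = 0.00056), a call lost without Riesling winter E-L 35 replicate 2 (adjusted p = 0.011). VIT_216s0050g00910 had 2.91, 4.42 and 3.14 FPKM in winter and 1.86, 2.12 and 0.98 FPKM in summer (log2 fold change 1.05 ± 0.31 (SE), adjusted p = 0.0084), and it was lost without Riesling summer E-L 35 replicates 1 or 3 or Riesling winter E-L 35 replicates 1, 2 or 3 (adjusted p between 0.011 and 0.069) and in 5 of 9 other settings.

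At E-L 36, VIT_212s0059g00490 had 94.2, 92.0 and 105 FPKM in “Riesling” winter and 2.15, 7.38 and 8.75 FPKM in “Riesling” summer (log2 fold change 4.15 ± 0.53 (SE), adjusted p = 1.3e-06). VIT_205s0077g00430 had 14.5, 14.3 and 12.1 FPKM in winter and 0, 0 and 0.65 FPKM in summer (adjusted p = 2.8e-06), and VIT_214s0030g01300 had 6.63, 6.46 and 2.69 FPKM in winter and 0.19, 0.19 and 0.06 FPKM in summer (adjusted p = 7.4e-07). These genes were low in every summer library of that stage. The 3 genes called lower in winter were VIT_213s0019g00860, with 84.0, 85.4 and 241 FPKM in winter and 672, 481 and 572 FPKM in summer (log2 fold change -1.90 ± 0.36 (SE), adjusted p = 0.00019), VIT_218s0089g01270, with 181, 196 and 573 FPKM in winter and 1398, 1065 and 729 FPKM in summer (log2 fold change -1.57 ± 0.39 (SE), adjusted p = 0.0027), and VIT_214s0060g02000, with 5.67, 5.08 and 5.51 FPKM in winter and 9.19, 17.7 and 25.6 FPKM in summer (log2 fold change -1.53 ± 0.40 (SE), adjusted p = 0.0042). The number of lower calls was 1 without “Riesling” winter E-L 36 replicate 1 or replicate 2, 6 without replicate 3, and 1 with the near-equal pairs summed. VIT_218s0089g01270 was not called without Riesling summer E-L 36 replicate 1 or Riesling winter E-L 36 replicates 1 or 2 (adjusted p between 0.019 and 0.03), nor VIT_214s0060g02000 without Riesling summer E-L 36 replicates 2 or 3 or Riesling winter E-L 36 replicates 1, 2 or 3 (adjusted p between 0.011 and 0.036).

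At E-L 38, the lowest folds were those of the chromosome 13 run. VIT_213s0019g02780 had 13.5, 15.5 and 15.8 FPKM in “Riesling” winter and 638, 626 and 449 FPKM in “Riesling” summer (log2 fold change -5.21 ± 0.48 (SE), adjusted p = 2.5e-10). VIT_213s0019g02770 had 1.48, 1.87 and 1.77 FPKM in winter and 80.0, 60.6 and 41.8 FPKM in summer (log2 fold change -5.08 ± 0.62 (SE), adjusted p = 5.7e-08), and VIT_213s0019g02840 had 2.07, 0.88 and 3.26 FPKM in winter and 75.2, 72.4 and 52.8 FPKM in summer (log2 fold change -4.98 ± 0.56 (SE), adjusted p = 1.1e-08). Higher in winter was VIT_214s0066g00700, with 143, 142 and 114 FPKM in winter and 0.64, 1.66 and 0.47 FPKM in summer (log2 fold change 7.21 ± 1.00 (SE), adjusted p = 4.5e-07). VIT_203s0063g01290 had 70.2, 71.1 and 71.9 FPKM in winter and 0.99, 1.29 and 1.02 FPKM in summer (log2 fold change 6.06 ± 1.08 (SE), adjusted p = 2e-05), and VIT_205s0077g00430 had 4.11, 4.51 and 3.07 FPKM in winter and 0.14, 0 and 0 FPKM in summer (adjusted p = 1.5e-05). Winter and summer libraries did not overlap in any of these 6 genes.

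Whether the step between stages differed between the seasons was tested as an interaction in “Riesling”. The change at E-L 36 over E-L 35 was more positive in winter than in summer in 56 of the 97 genes and more negative in 1, with 0.01 as the limit of the adjusted p, where 10.6% and 11.1% of all genes tested passed. The median difference of the log2 fold changes, winter minus summer, was 2.32. For E-L 38 over E-L 36, 6 were more positive and 43 more negative in winter, where 19.9% and 20.9% of all genes passed, with a median of -1.70. This step uses the “Riesling” summer libraries labelled E-L 38. In VIT_208s0040g02700 the difference of the first step was 3.26 ± 0.41 (SE), adjusted p = 7.4e-07, and in “Riesling” summer it had 13.3, 13.2 and 6.39 FPKM at E-L 35, 6.06, 7.18 and 6.14 FPKM at E-L 36 and 3.49, 4.31 and 3.82 FPKM at E-L 38. In VIT_204s0008g01580 it was 2.77 ± 0.61 (SE), adjusted p = 0.0009, and in VIT_204s0008g01520, the sharpest peak of “CS” winter, it missed the threshold (1.66 ± 0.79 (SE), adjusted p = 0.11), with 690.0, 392 and 132 FPKM at E-L 35, 1089, 1037 and 859 FPKM at E-L 36 and 905, 946 and 880.4 FPKM at E-L 38 in “Riesling” summer.

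The chromosome 4 run moved together. Its 11 genes were all called higher at E-L 36 over E-L 35 in “Riesling” winter (median log2 fold change 3.56), and 9 were called lower at E-L 38 over E-L 36 (median -1.92). Winter over summer in “Riesling”, 11 were called lower at E-L 35 (median -3.58), 0 at E-L 36 (median -0.53) and, with the “Riesling” summer libraries labelled E-L 38, 10 at that stage (median -2.54). In “CS” summer 1 of the 11 was called lower at E-L 36 over E-L 35 and 1 at E-L 38 over E-L 36. At E-L 36 in “Riesling”, 1 of the 11 differed between winter and summer at an unadjusted p under 0.05, and DESeq2 called 0 of them. Since reads may be split among neighbours with fractional counts, the 11 genes may not be independent measures.

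Summed over the 11 genes of the run, the level was 90.4, 88.9 and 47.7 FPKM at E-L 35, 671, 768 and 695 FPKM at E-L 36 and 128, 44.2 and 42.5 FPKM at E-L 38 in “CS” winter, a peak with no overlap between stages. In “CS” summer the sums were 742, 693 and 686 FPKM at E-L 35, 522, 882 and 526 FPKM at E-L 36 and 74.2, 468 and 488 FPKM at E-L 38, high from E-L 35 on, with E-L 38 replicate 1 alone low. In “Riesling” winter they were 197, 88.8 and 218 FPKM at E-L 35, 1016, 1035 and 1939 FPKM at E-L 36 and 352, 370.3 and 401 FPKM at E-L 38, again a peak, with replicate 3 highest at E-L 36. In “Riesling” summer they were 2309, 1627 and 1063 FPKM at E-L 35, 2585, 2295 and 2027 FPKM at E-L 36 and 2998, 2978 and 2692 FPKM at E-L 38, and every “Riesling” summer library of the run lay above every “Riesling” winter library at the same stage. VIT_204s0008g01480, the gene with 11 exons and without fractional counts, had 11.9, 11.4 and 8.28 FPKM at E-L 35, 37.2, 39.5 and 33.8 FPKM at E-L 36 and 16.0, 8.77 and 8.48 FPKM at E-L 38 in “CS” winter and 20.2, 14.4 and 20.3 FPKM at E-L 35, 79.9, 78.5 and 133 FPKM at E-L 36 and 31.9, 30.0 and 33.4 FPKM at E-L 38 in “Riesling” winter.

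**Figure D5:**
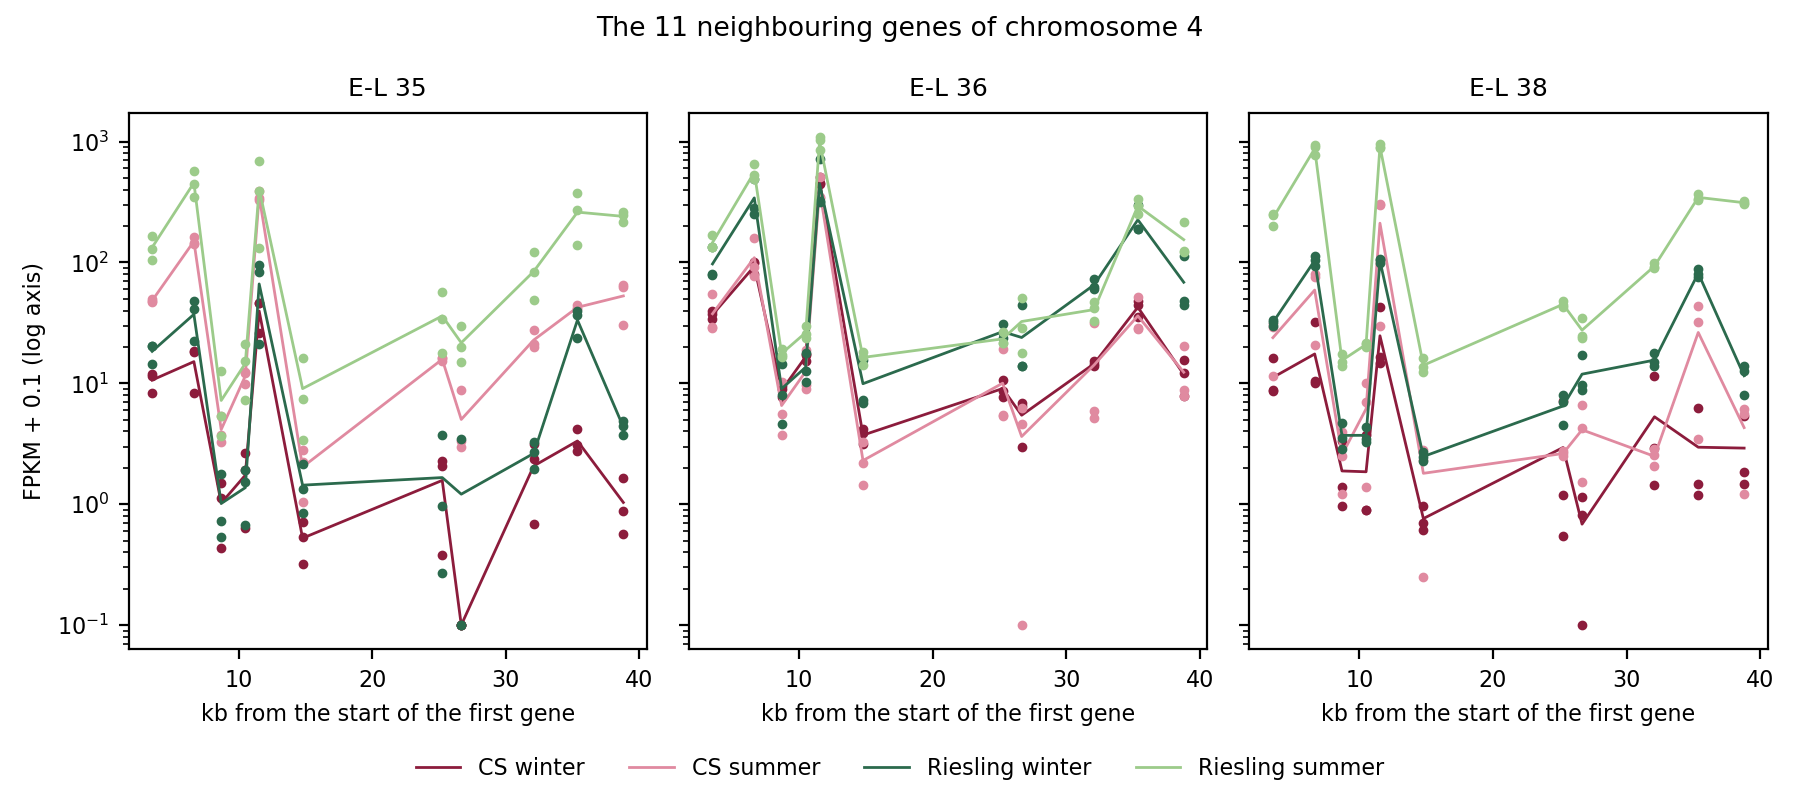
FPKM + 0.1 (log axis) of the 11 genes of the chromosome 4 run against the distance in kb of each gene from the start of the first, in a panel for each stage. Points are libraries and lines join the condition means of the 4 series. At E-L 35 both winter series lie below both summer series in all 11 genes, and at E-L 36 the winter and summer lines of “CS” lie close to each other.

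The first run of chromosome 13 had the same directions. Its 4 genes were called higher at E-L 36 over E-L 35 in “Riesling” winter (median 3.77) and lower at E-L 38 over E-L 36 (median -2.93), and winter over summer they were called lower at E-L 35 (median -4.64) and, with the same “Riesling” summer libraries, at E-L 38 (median -5.03). In “CS” summer, 3 of the 4 were called lower at E-L 38 over E-L 36. Of the 3 other gene models listed between them, VIT_213s0019g02820 had the highest means, of at most 5.43 FPKM at the first 2 stages and 20.3 FPKM at E-L 38 in “Riesling” summer. The second run of chromosome 13 was also called higher and then lower in “Riesling” winter in its 3 genes (medians 2.70 and -2.36).

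The chromosome 3 run differed. Of its 4 genes, 2 were called higher at E-L 36 over E-L 35 in “Riesling” winter. At E-L 38 over E-L 36, 0 were called lower by edgeR or DESeq2, and 0 had an unadjusted p under 0.05. Winter over summer in “Riesling”, 1 was called higher at E-L 36 and 2 at E-L 38, while at E-L 35 0 were called by either tool and 1 had an unadjusted p under 0.05. In “CS” summer 0 of the 4 were called in either step, 0 had an unadjusted p under 0.05 and DESeq2 called 0. The 6 other gene models listed in the stretch had condition means of at most 3.29 FPKM.

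Some genes that the study lists by function would have passed the limit on the peak score. ACO3 (VIT_211s0016g02380), an oxidase that makes ethylene, had a score of 2.55, with 5.72 ± 2.45 FPKM at E-L 35, 48.3 ± 0.97 FPKM at E-L 36 and 7.45 ± 2.54 FPKM at E-L 38 in “CS” winter (SD, n = 3 each). A PP2C gene (VIT_216s0050g02680), of the phosphatases that act in abscisic acid signalling, had a score of 1.79, with 5.98 ± 0.34, 25.4 ± 0.46 and 6.62 ± 4.68 FPKM at the 3 stages. Both also peaked in “Riesling”, in the winter and the summer crop. In winter ACO3 was called higher at E-L 36 (log2 fold change 4.59 ± 0.45 (SE)) and lower at E-L 38 (-1.60 ± 0.37 (SE)), and so was the PP2C gene (4.88 ± 0.38 (SE) and -1.47 ± 0.30 (SE)). In summer the same steps were called for ACO3 (2.02 ± 0.39 (SE) and -5.24 ± 0.51 (SE)) and the PP2C gene (3.04 ± 0.36 (SE) and -5.70 ± 0.47 (SE)), and the second step uses the libraries labelled E-L 38. In “CS” summer neither gene peaked at E-L 36. There the PP2C gene was called lower at E-L 36 over E-L 35 (-2.30 ± 0.45 (SE)), and ACO3 was not called (-1.51 ± 0.50 (SE)). FLS (VIT_211s0118g00390), which makes flavonols, had a score of 1.14 and was called in both steps in “Riesling” winter and in neither in “Riesling” summer (winter log2 fold changes 1.73 ± 0.14 (SE) and -1.23 ± 0.14 (SE)).

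The 3 other genes above the limit belong to anthocyanin and flavonoid synthesis, and their peak was not called in “Riesling” winter. CHS3 (VIT_205s0136g00260), a chalcone synthase, averaged 1102 ± 95.0 FPKM at E-L 36 in “CS” winter and 14.9 ± 3.95 FPKM in “Riesling” winter (SD, n = 3 each). F3H (VIT_204s0023g03370), a flavanone hydroxylase, averaged 317 ± 26.1 FPKM in “CS” winter and 6.67 ± 2.26 FPKM in “Riesling” winter, and UFGT averaged 123 ± 6.77 FPKM and 9.47 ± 0.74 FPKM in the same conditions.

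Of all genes tested, 19.0% were highest on average at E-L 36 in the “CS” winter crop. In the lists these were 10 of 27 genes from PAL to F3H, 7 of 8 hydroxylases (F3'H and F3'5'H) and 4 of 4 MYBA genes. They were also 5 of 7 genes listed as decorating anthocyanins (UFGT, AOMT, 3AT and the putative 53GT) and 4 of 26 stilbene genes (STS, with the regulators MYB14 and MYB15). Of the hormone genes they were 7 of 35 of abscisic acid, 4 of 21 of ethylene and 6 of 51 of auxin. In “Riesling” winter at E-L 36 over E-L 35, 4.13% of all genes tested were called higher and 6.01% lower. From PAL to F3H, 1 gene was called higher and 1 lower. In the next lists, 2 hydroxylases and 2 decorating genes were called lower, and 3 MYBA genes and 1 gene of the stilbene list were called higher. Of the MYBA genes, MYBA1 averaged 0 FPKM at E-L 35 and 0.42 FPKM at E-L 36 in this crop, close to no signal. Of the hormone lists, 2 genes were called higher and 3 lower for abscisic acid, 2 and 6 for ethylene, and 6 and 12 for auxin. At E-L 38 over E-L 36 in “Riesling” winter, where 5.8% were called higher and 13.1% lower, 1 gene was called higher and 3 lower from PAL to F3H, 2 hydroxylases were called lower, and the calls were 4 higher and 7 lower for abscisic acid, 2 and 5 for ethylene, and 9 and 13 for auxin.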

How the data were processed

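RNA of 36 libraries in 12 conditions was sequenced by the authors as single reads of 50 bases and aligned to the 12X V2 grapevine genome with at most 2 mismatches (Bowtie, per the submitters' processing notes). The counting program and the use of strand are not given in the sources used here. As deposited, each library lists genes with an expected count, an estimate that is not normalized, and an FPKM value, which the authors scaled by length and library size. Genes without a row in a library were taken as 0. A deposited table with 36 per-sample columns that are only numbered was not used. Deposited gene models (31922) gave positions, exons and coding lengths. Of their identifiers, 0 matched the RefSeq table, so the 100 genes have no names or roles here, lists by gene family or cell type could not be formed from annotation, pathway lists are those of the study, and no sequences are shown.

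Expected counts were rounded to whole numbers, filtered with filterByExpr on the 12 conditions (20183 genes left), scaled by TMM and tested with the quasi-likelihood test of edgeR 4.0.16 (R 4.3.3) in 1 fit of all 36 libraries. Between 23.8% and 28.9% of values per library were fractional. Calls took a Benjamini-Hochberg adjusted p up to 0.01 with 2-fold or more, and the adjusted p alone for interactions. Each SE of a fold change was derived from that test, as the absolute log2 fold change divided by the square root of its F statistic. It is therefore an approximate value. The test was checked on simulated data first. Alternatives used DESeq2 1.42.0, its size factors, limma 3.58.1 on log2(FPKM + 1) and log2(FPKM + 0.1), no filter, a limit of 0.05, fewer libraries, a replicate block, each library left out and, chosen after seeing the data, near-equal pairs of libraries summed. Depth was 8367013 to 28686956 counts per library.

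Replicates of the same number correlated in their deviations in each pair of the “Riesling” summer step to E-L 36 (r = 0.148, 0.103 and 0.246 over genes), so the block is given beside that result. In the other comparisons at least 1 pair did not pass 0.1. “Riesling” winter over summer had r = 0.274, -0.059 and 0.300 at E-L 35 and 0.089, 0.102 and 0.191 at E-L 36. Named genes were the 12 highest peak scores, the 8 highest FPKM values at E-L 36 in “CS” winter, the 3 largest called changes in each direction of each stage step and each season comparison and the 3 nearest the limit of the score on each side. The genes and lists were chosen with earlier results of these data known. Figures were drawn with matplotlib 3.10.9.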

Additional observations from a re-analysis of the deposited data

Results flagged for a closer look

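The difference between the seasons stood out by a test of the difference itself. In “Riesling”, the change at E-L 36 over E-L 35 differed between the winter and the summer crop, with 56 of the 97 genes more positive and 1 more negative in winter, where 10.6% and 11.1% of all genes tested passed. The change at E-L 38 over E-L 36 differed as well, with 6 genes more positive and 43 more negative in winter, where 19.9% and 20.9% of all genes passed. It rests on the “Riesling” summer step from E-L 36 to E-L 38, which ran against the 2 other series in most genes called in both. The part of the libraries of that step in the result was not tested.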

How the results depend on the processing

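Of 157 counts of these genes under settings other than leaving out a library, 136 stayed within 1.5 times of the value reported, and so did 116 of 123 with 1 library left out. In “CS” summer at E-L 36 over E-L 35, the 1 higher call was 2 with DESeq2, with the 9 libraries of the series alone and with the replicate block, and 5 at an adjusted p of at most 0.05 with no limit on the fold, and the 11 lower calls were 17 and 26 with DESeq2 and with that looser limit. At E-L 38 over E-L 36, the 10 lower calls were 23 with the looser limit, 5 with the libraries of the series alone, 3 with the near-equal pairs summed and 2 to 7 with 1 library left out. In “Riesling” summer at E-L 36 over E-L 35, the 11 higher calls were 18 with the looser limit, 4 with the libraries of the series alone and 3 with the replicate block, and the 18 lower calls were 31 with the looser limit. At E-L 38 over E-L 36, 17 higher calls became 28 with the looser limit and 18 lower calls became 11 with the libraries of the series alone. For “Riesling” winter over summer, the 3 higher calls at E-L 35 were 6 with the looser limit and 1 with limma on log2(FPKM + 1), and the 3 lower calls at E-L 36 were 7 with the looser limit, 5 with limma on log2(FPKM + 1), 1 with the pairs summed and 1 to 6 with 1 library left out. The choice of genes moved most with the pseudocount of the score: a pseudocount of 0.1 kept 40 of the 100 genes, a pseudocount of 5 kept 74, the median of replicates 81, CPM with TMM 89, and leaving out 1 library 84 to 96. With 1 library left out, the 67 genes called higher at E-L 36 in “Riesling” winter were 64 to 67, the 57 called lower at E-L 38 were 42 to 59, and the 52 lower in winter at E-L 35 were 46 to 52. Of 77 tested values of named genes, 53 kept their side of the threshold in every setting, and 0 reversed. Over all genes tested, summing the pairs gave 132 higher calls in place of 295 (“CS” summer, E-L 36 over E-L 35), 136 lower in place of 259 (E-L 38 over E-L 36), 770 lower in place of 1214 (“Riesling” winter, E-L 36 over E-L 35) and 309 lower in place of 501 (“Riesling” winter over summer, E-L 36). With the libraries of the series alone, “Riesling” summer gave 238 higher and 639 lower in place of 663 and 1397 at E-L 36 over E-L 35, or 195 and 601 with the replicate block, and 721 and 564 in place of 1167 and 1235 at E-L 38 over E-L 36. DESeq2 gave 407 higher calls in place of 227 in “CS” summer at E-L 38 over E-L 36, and limma on log2(FPKM + 1) gave 171 higher in place of 295 in that crop at E-L 36 over E-L 35, 727 and 808 in place of 1167 and 1235 in “Riesling” summer at E-L 38 over E-L 36, 507 and 766 higher in place of 834 and 1171 in the steps of “Riesling” winter to E-L 36 and to harvest, 496 and 1549 higher in place of 939 and 2385 for “Riesling” winter over summer at those stages, and 3446 in place of 2242 more negative changes to E-L 36 in winter. On the FPKM scale the median of all genes was -0.14 at E-L 36 over E-L 35 in “Riesling” winter (507 higher and 1232 lower, in place of 834 and 1214) and -0.13 for “Riesling” winter over summer at E-L 36 (496 higher and 467 lower, in place of 939 and 501), against -0.03 and -0.01 with TMM. The cause was not tested for any of these, apart from the smaller number of libraries in the fits that leave some out. Outside the “Riesling” summer step to E-L 36, same-numbered replicates did not correlate in every pair of a comparison, though some pairs did. Apart from the counts above, the replicate block kept the counts of these genes within 1.5 times. Levels under 0.105 to 0.359 CPM could not be told from 0.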

Other observations

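The 3 genes of the list that were not tested were weakly covered. VIT_200s0299g00090 had 0, 0 and 2.88 FPKM at E-L 35, 0, 4.53 and 11.5 FPKM at E-L 36 and 0, 1.15 and 2.94 FPKM at E-L 38 in “CS” winter and 6.14, 2.98 and 3.77 FPKM at E-L 35, 20.3, 0 and 5.42 FPKM at E-L 36 and 3.22, 6.47 and 3.51 FPKM at E-L 38 in “Riesling” winter. VIT_207s0005g06430 owed its place to 1 library, with 3.65, 0 and 0 FPKM at E-L 36 in “CS” winter. VIT_216s0013g00920 had 2.54, 0.87 and 1.11 FPKM in the same libraries.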
